A study of Drosophila melanogaster with 2 samples.

Results

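Among the strongest Stat92E peaks of Drosophila embryos, 8 lay nearest to the transcription start site (TSS) of the genes px, cbt, CG31668, CG18549, Art3, Chro, CG14100 and CG11050 and held no full STAT site beside the summit, the base of highest signal. These 8 genes, of 13945 protein-coding genes on the chromosome arms, are described here through their 8 strongest peaks, of 3601 reproducible arm peaks. They were chosen by the signal score of those peaks, so scores and ranks are given as a description and not as a finding. Both names given to the group were checked: the 8 summits had no STAT site within 50 bp, and 5 of them lay within 1 kb of a TSS. The summits of cbt, CG31668 and CG11050 lay over 1 kb from the TSS, so for these 3 genes the word promoter does not describe the place of the peak.

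Occupancy was measured by chromatin immunoprecipitation with sequencing (ChIP-seq) in 1 group of 2 biological replicates, numbered 1 and 3. Both came from a transgenic strain that stably expresses Stat92E carrying eGFP at its C-terminus, collected as whole embryos of mixed sex aged 0 to 12 h. Chromatin was sonicated to 200 to 800 bp and precipitated against GFP per the description, while the antibody label names Stat92E. A control shared by both replicates entered the authors' peak calling, and no control sample or second genotype was analysed here. The measured protein is the tagged transgene product, its driving promoter is not given in the sources used here, and a whole embryo mixes all cell types and a range of stages. Gene names below state which TSS is nearest, not which gene is regulated. Read depth is unknown because the files hold peaks and no read counts.

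Stat92E is the transcription factor of the fly JAK/STAT pathway. Secreted Unpaired ligands bind the receptor Domeless, the kinase Hopscotch is activated, and phosphorylated Stat92E dimers enter the nucleus and bind palindromic sites built from TTC and GAA. In embryos the pathway is known for its roles in segmentation, the tracheae and the hindgut. The 8 genes are not known as a pathway. They include cbt (cabut), a zinc finger transcription factor of the KLF type; px (plexus), a nuclear protein that limits wing vein formation; Chro (Chromator), a chromodomain protein of polytene interbands and the spindle; and Art3, an arginine methyltransferase. The annotation gives CG31668 and CG18549 the names of transporter families, dSLC5A12 and MFSD11, and describes the products of CG14100 and CG11050 as uncharacterized.

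The windows below show the feature that names the group: none holds TTC and GAA separated by 3 or 4 bases. Of the other 12 peaks among the 20 strongest, 1 lacked such a site, the peak at chif. The px window is described by positions and composition only. Each is the 101 bases centred on the summit, plus strand, 5′ to 3′, from the RefSeq copy of Release 6 (dm6). Capitals mark the hexamer ATTTTA, which reads TAAAAT when it lies on the minus strand. For Chro, whose summit lies in an annotated exon, 29 bases are shown and capitals mark CGATA.
cbt, chr2L:481031-481131: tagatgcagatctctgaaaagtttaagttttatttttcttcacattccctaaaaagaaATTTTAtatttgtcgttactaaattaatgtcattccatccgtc
CG31668, chr2L:2202343-2202443: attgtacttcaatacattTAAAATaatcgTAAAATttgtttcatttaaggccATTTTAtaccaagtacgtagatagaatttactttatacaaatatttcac
CG18549, chr3R:12449106-12449206: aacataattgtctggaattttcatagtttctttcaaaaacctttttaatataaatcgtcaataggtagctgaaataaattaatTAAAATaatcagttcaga
Art3, chr3R:15229465-15229565: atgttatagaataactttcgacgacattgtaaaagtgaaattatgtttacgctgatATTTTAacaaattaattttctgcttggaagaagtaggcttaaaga
CG14100, chr3L:19590561-19590661: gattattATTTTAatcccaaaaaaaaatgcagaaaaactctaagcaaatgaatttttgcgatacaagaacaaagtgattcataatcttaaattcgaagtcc
CG11050, chr2L:6612660-6612760: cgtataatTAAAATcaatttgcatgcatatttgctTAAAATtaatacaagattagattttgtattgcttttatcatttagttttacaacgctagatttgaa
Chro, chr3L:22878880-22878908: tgtattgcctgtCGATAgctttaaactaa

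The hexamer occurred in the window of each of the 8 genes, against 20.2% of all reproducible arm peaks. It was picked after the windows had been read, so the count describes the letters of these windows and cannot serve as a test. There were 11 matches, 6 on the plus strand and 5 on the minus strand, and they took no fixed place. Those of px and cbt both began 8 bp beyond the summit in the plus-strand direction, that of Art3 6 bp and that of Chro 23 bp beyond it. The match of CG14100 lay 43 to 38 bp before the summit. CG31668 held 3 matches and CG11050 held 2.

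Low GC content went together with the hexamer. In the 101 bp windows it was 22.8% for CG31668, CG18549 and CG11050, 26.7% for CG14100, 27.7% for px, cbt and Art3, and 32.7% for Chro. All 8 windows were at or below the 32.7% of Chro, a bound taken from the 8 themselves, against 28.9% of all reproducible arm peaks. The median of the 8 was 27.2%, that of the other 3593 peaks 40.6%, and that of the other 12 peaks among the 20 strongest 39.6%. Peaks closer in kind were also closer in composition: the 38 other promoter peaks with no STAT site among the 100 strongest had a median of 30.2%, and 76.3% of them were at or below 32.7%.

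Among other peaks with a GC content at or below 32.7%, 446 of 1031 (43.3%) held ATTTTA. Of the other promoter peaks with no STAT site among the 100 strongest, 13 of 38 (34.2%) held it, and of the other peaks among the 20 strongest 3 of 12. The part of base composition in the count of 8 was not tested. The list of promoter peaks with no STAT site, without the 8 genes, was also read from the strongest down. The hexamer stood in 5 of the first 5 and 10 of the first 20. Of the first 100 it stood in 35 (35.0%), and of all 2127 in 448 (21.1%). The median GC content of these sets was 25.7%, 31.2%, 30.7% and 40.6%, in the same order. Of the first 10 the hexamer stood in 7 (70.0%), at a median GC content of 28.7%. Of the first 38 it stood in 13 (34.2%), at a median of 30.2%. Whether the share follows GC content was not tested.

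In the medians, the GC content was lowest in a narrow stretch around the summit. In bins of 51 bp the median of the 8 loci was 25.5% at the summit, 33.3% at 50 bp before it and 30.4% at 50 bp after it. At 100 bp it was 47.1% on one side and 48.0% on the other. Single loci differed. At px, cbt and Art3 the bin at the summit was the lowest within 500 bp, and at CG31668 that 50 bp before it. Chro had 41.2% at the summit and 15.7% at 300 bp after it, and CG14100 31.4% and 17.6% at 200 bp after. CG18549 and CG11050 also had lower bins farther out, 23.5% at 200 bp on both sides and 15.7% at 500 bp before. The other reproducible peaks had medians of 39.2% at the summit and 43.1% at 100 bp before it, and the other peaks among the 100 strongest had 31.4% and 45.1%. The dip of the 8 loci was thus deeper than that of all other peaks and also deeper than that of other strong peaks, as a description of these medians. Of these other strong peaks 62 of 92 had no STAT site within 50 bp. The 38 promoter peaks with no STAT site, the closest in kind, were not profiled in bins.

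**Figure D1:**
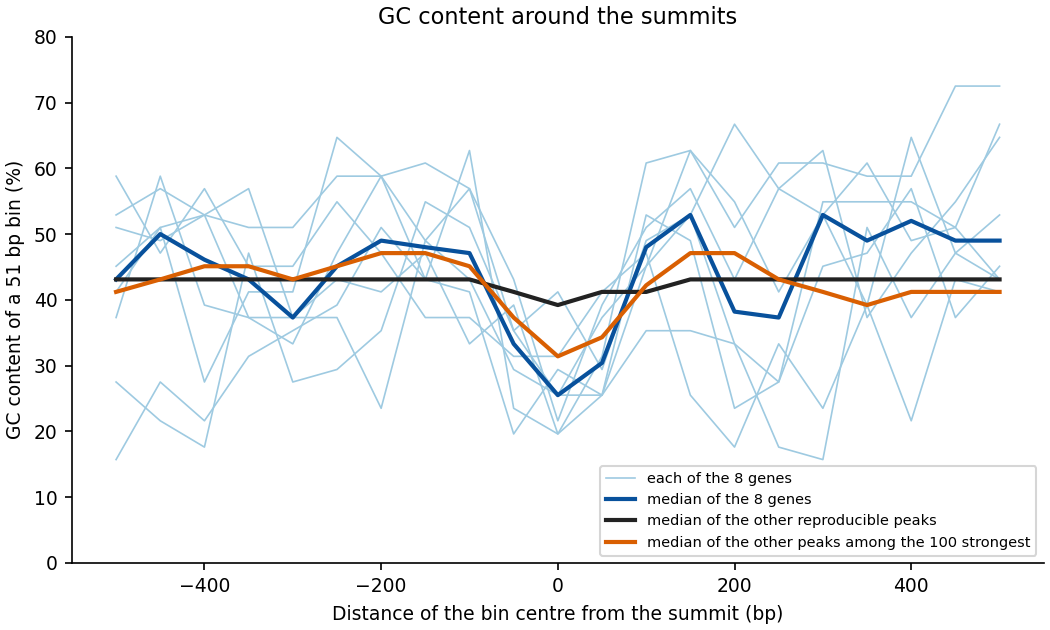
GC content (%) in 51 bp bins against the distance of the bin centre from the summit (bp, plus-strand direction). Thin lines are the 8 genes, thick lines the medians of the 8 genes, of the other reproducible peaks and of the other peaks among the 100 strongest. At the summit the median of the 8 genes is 25.5%, below the 39.2% of the other reproducible peaks.

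No STAT site stood within 50 bp of the 8 summits, which 85.2% of all reproducible arm peaks share. A STAT site was read as TTCNNNGAA, or as the same ends with a 4-base spacer, on both strands. Over the whole peak interval 6 of the 8 remained without one, a count to which the share of 85.2% does not apply. The cbt peak held the 4-base-spacer site TTCACGTGAA at chr2L:481284-481293, with its centre 207 bp from the summit. The CG14100 peak held TTCACTGAA at chr3L:19590506-19590514, 101 bp from the summit. Both sites therefore lay inside the peak but more than 50 bp from its summit. At cbt each replicate list also held a weaker summit with this site within 50 bp. It lay at chr2L:481286 in replicate 1 (score 25.6) and at chr2L:481254 in replicate 3 (score 83.0, arm rank 1330).

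Sequences that miss the 3-base-spacer site by 1 of its 6 fixed bases stood within 50 bp of 6 of the 8 summits, all but those of CG14100 and CG11050, against 42.8% of all reproducible arm peaks. The share was 63.2% in the 38 other promoter peaks with no STAT site among the 100 strongest, and 49.7% in other peaks with a GC content at or below 32.7%. The 6 windows held 10 of them. In cbt they read ATCTCTGAA at chr2L:481040-481048 and TTCCCTAAA at chr2L:481075-481083, the second across the summit. CG31668 held TTCATTTAA and CG18549 held TTCTTTCAA, both ending before the summit. Art3 held TTCGACGAC, TGCTTGGAA and TTGGAAGAA, the latter pair overlapping, and Chro held TTTTTCGAA. At the summits of replicate 1 alone the count was 7 of 8, and at those of replicate 3 alone 4 of 8. Without replicate 1 it was 3 when the Art3 peak, then assigned to mRpS10, was not counted. The windows of CG18549, Chro and CG14100 held such a site at the summit of replicate 1 and none at that of replicate 3, 36, 21 and 10 bp away.

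Elements known from housekeeping promoters stood in the windows at counts near their background shares, from which nothing is read about the 8 genes. The DNA replication-related element (DRE) TATCGATA, bound by the factor Dref, occurred in 0 of 8 windows and 2.89% of all peaks. The pentamer CGATA, the end of the DRE, occurred in 2, those of Chro and CG14100, and in 19.4% of all peaks. Core promoter motif 1, GGTCACACT, occurred in 0 of 8 and 2.36% of all peaks. Motifs 6 and 7, known from ribosomal and housekeeping promoters, occurred in 0 of 8, against 0.611% and 3.05%. The CG18549 peak held a DRE, TATCGATA at chr3R:12449013-12449020, outside the window.

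Elements of other factors, apart from the TATA box, were too rare among all peaks for their counts in 8 windows to set the group apart. An E-box, CACGTG or CAGCTG, stood in 0 of 8 windows and 6.91% of all peaks. GAGAGAG, the element of the GAGA factor, stood in 0 of 8 and 3.11%, and CAGGTAG, the element of the early activator Zelda, in 0 of 8 and 0.555%. With 100 bp on each side GAGAGAG stood in 2, and over the whole peak it stood in 3 and an E-box in 2. The shares of all peaks above hold for 50 bp on each side, so these wider counts have no background beside them. The letters of the TATA box, TATAAA, stood in 3 windows, those of cbt, CG31668 and CG18549, against 14.5% of all peaks and 32.2% of other peaks with a GC content at or below 32.7%. In cbt and CG31668 a TATA match overlapped an ATTTTA match. Each of these was searched on both strands, and a match or its absence describes letters only.

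**Figure D2:**
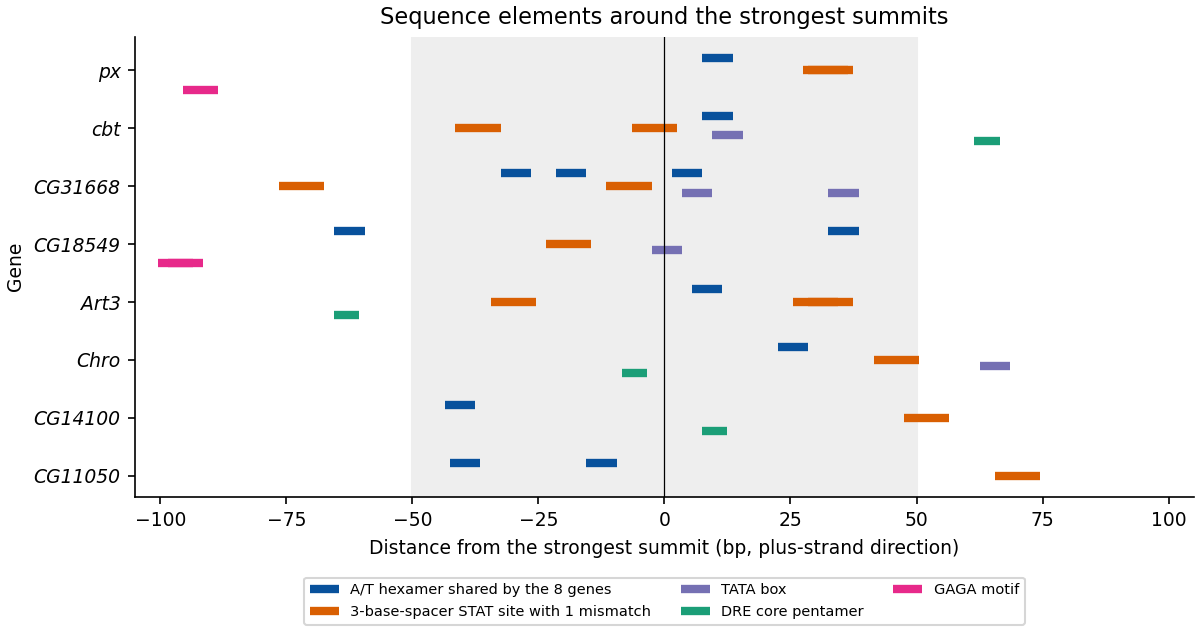
Positions of sequence elements against the distance from the strongest summit (bp, plus-strand direction), 1 row for each gene. The shaded band is the window of 50 bp on each side, and bars span the matched bases. The A/T hexamer lies in the band in all 8 rows, and sites with 1 mismatch in 6 of them.

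The strongest peak of the set belonged to px and was first of all arm peaks in every list. Its summit at chr2R:22514305 lay in an intron of px, 206 bp upstream of the innermost of the 3 px start positions. The 2 outer starts were 32253 and 47760 bp away. Its signal score, which the authors' files give without a unit, was 1085 in the reproducible set, 559 in replicate 1 and 525 in replicate 3. Both replicates placed the summit within 8 bp of each other.

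The cbt peak scored 832, and 439 and 384 in replicates 1 and 3, with ranks 3, 4 and 3 among the arm peaks of the 3 lists. Its summit at chr2L:481081 lay 1393 bp upstream of the cbt TSS, inside an intron of ush (u-shaped), which encodes a FOG-type cofactor of GATA factors. The nearest ush TSS was 4861 bp away. Assignment by nearest TSS thus names cbt for a summit that lies within another gene. The summits of the replicates were 31 bp apart.

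Of the genes annotated with transporter names, CG31668 had a summit outside any gene and CG18549 one just upstream of its start. The CG31668 peak scored 773 (449 in replicate 1 and 319 in replicate 3) and ranked 4, 3 and 11 in the reproducible set, replicate 1 and replicate 3. Its summit at chr2L:2202393 lay 3773 bp downstream of the TSS and 1328 bp beyond the 3′ end of the gene, in a gap of 5808 bp. The other neighbour was COX7AL2 on the minus strand, whose start lay 4481 bp away, so neither gene had a TSS close to this peak.

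The CG18549 peak scored 746, and 428 and 326 in the replicates, with ranks 5, 5 and 8. Its summit at chr3R:12449156 lay 140 bp upstream of the CG18549 TSS, in a gap of 249 bp behind the end of vrs. The summits of the replicates were 36 bp apart. The gap was shorter than the peak, which spanned 351 bp.

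Art3 and Chro each share a short upstream region with a gene that reads the other way. The Art3 summit at chr3R:15229515 lay 107 bp upstream of the Art3 TSS and 150 bp from that of mRpS10, a protein of the mitochondrial ribosome, in a gap of 256 bp. It scored 724, with 361 in replicate 1 and 360 in replicate 3, and ranked 7, 10 and 4. In replicate 3 the summit lay 37 bp from that of replicate 1 and was nearer to mRpS10, 125 bp from its TSS. Which of the pair is named therefore turned on the replicate.

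The Chro summit at chr3L:22878900 lay in its 5′ UTR, 84 bp downstream of the TSS and 189 bp from the TSS of Ssl1, a subunit of the transcription factor TFIIH. Its score was 706, with 359 and 351 in the replicates, and its ranks were 8, 11 and 5. Summits within 1 kb of the TSS of a second protein-coding gene were found for these 2 of the 8 genes, against 26.8% of all reproducible arm peaks. Without replicate 1 the count was 1, because the Art3 peak went to mRpS10.

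The uncharacterized genes closed the list. The CG14100 summit at chr3L:19590611 lay 87 bp upstream of its TSS and 162 bp from the 3′ end of ash1, a histone methyltransferase of the Trithorax group, in a gap of 248 bp. It scored 648, with 325 and 337 in replicates 1 and 3, and ranked 13, 23 and 7. The CG11050 summit at chr2L:6612710 lay 1023 bp downstream of the nearest of 3 start positions, in an intron of the gene. Its scores were 641, 355 and 280, and its ranks 15, 13 and 26. CG14100 was the only gene of the 8 with a higher score in replicate 3 than in replicate 1. The score has no stated unit and depth is unknown, so scores of different lists cannot be compared directly. By rank, cbt, Art3 and Chro also stood higher in replicate 3.

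**Figure D3:**
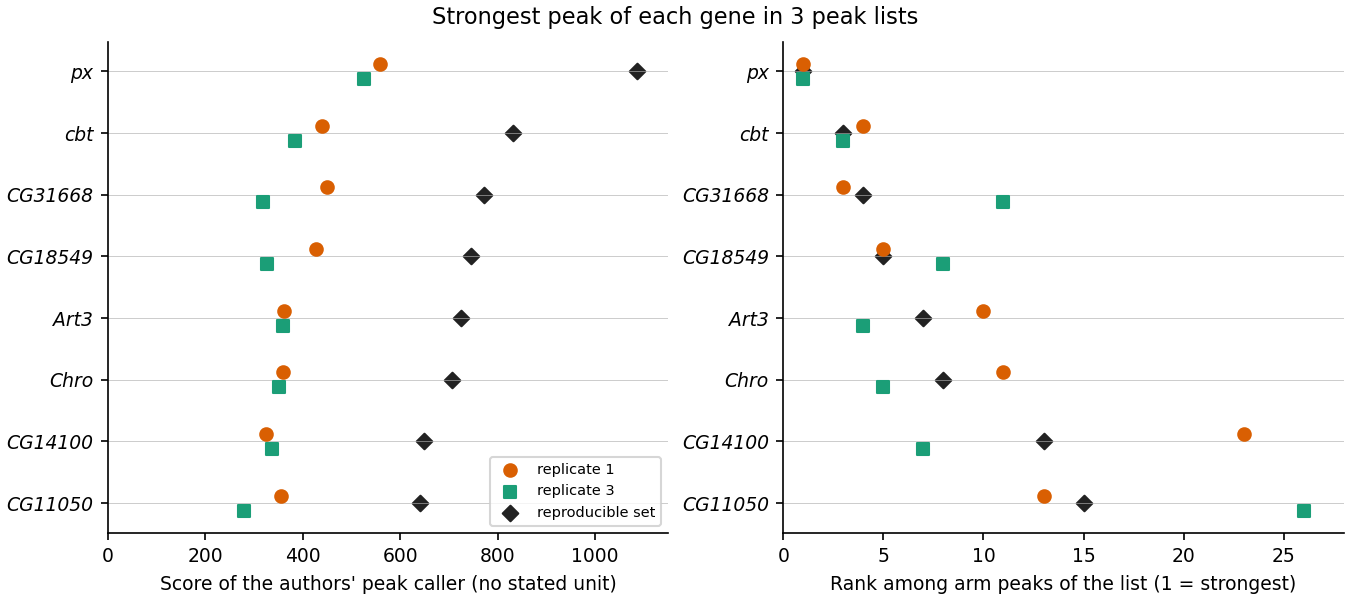
Left, signal score of the strongest peak of each gene (no stated unit) in replicate 1, replicate 3 and the reproducible set; right, its rank among the arm peaks of the same lists, with 1 the strongest. Replicate ranks run from 1 to 26, and px is first in the 3 lists.

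The same 8 peaks stood high in each replicate. All 8 overlapped one of the 100 strongest arm peaks of both replicate lists, against 2.39% of all reproducible arm peaks; the scores that chose the genes come from the same reads, so nothing is read from this difference. Distances between the summits of the replicates ran from 1 bp in CG31668 to 37 bp in Art3, with a median of 16 bp. The deposited −log10 q-value was 2.89 for all 8 in replicate 1 and 4.02 in replicate 3, the highest value of each list, so it did not rank them. Peak widths ran from 319 to 413 bp, while 79.2% of the other reproducible peaks had a width of exactly 470 bp. None of the other 92 peaks among the 100 strongest had that width, and their median was 360 bp.

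Promoter peaks, within 1 kb of a TSS, made up 5 of the 8 and 65.5% of all reproducible arm peaks, so the share among the 8 was close to the background. These 5 were px, CG18549, Art3, Chro and CG14100, at 84 to 206 bp from the start. No tRNA gene or annotated transposon lay within 500 bp of any of the 8 summits.

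Just below CG11050, with its score of 641 and rank of 15, came 5 further promoter peaks with no STAT site. They lay at chif (616, rank 20), ph-p (607, rank 21), CG11309 (589, rank 23), Fkbp14 (578, rank 26) and cu (576, rank 27). Their GC contents were 31.7%, 35.6%, 25.7%, 23.8% and 16.8%. All 5 held ATTTTA and 2 of them, chif and Fkbp14, held a site with 1 mismatch. The GC content of ph-p lay above and that of cu below the range of the 8 genes.

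Each locus, taken as the gene span and 5 kb on both sides, held further and much weaker summits. All 8 genes have an assigned reproducible peak by the rule, against 18.0% of protein-coding genes, and hence a reproducible summit in the locus, against 42.5%. At least 2 reproducible summits stood in each of the 8 loci, against 17.2% of all genes and 40.6% of those with 1 or more; the peak that chose the gene is 1 of them. The 8 loci held 22 in all, 4 each at px, cbt and CG18549 and 2 each at the others. The pooled list held 100, and each replicate list held 94. As px is long, its locus of 77.8 kb took 46 of the 100 pooled summits.

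Per length, pooled summits numbered 0.906 per kb at cbt, 0.762 at CG18549, 0.723 at CG31668 and 0.591 at px. At Chro, CG14100 and Art3 there were 0.458, 0.437 and 0.339 per kb. CG11050 had 0.248 per kb, close to the 0.224 per kb of all arms. All 8 were above that mean, with the peak that chose the gene counted in each. The mean also covers sequence outside gene loci, and no share over all gene loci is at hand, so nothing is read from this count.

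The strongest summit stood well apart from the next in its locus. Scores fell from 1085 to 159 at px, a ratio of 6.8, and from 706 to 129 at Chro, a ratio of 5.47. The ratio was 5.22 at CG18549, 4.30 at CG14100, 3.81 at Art3 and 3.26 at cbt. It was smallest at CG11050 (2.84) and CG31668 (2.27). Every ratio is between a peak picked for its height and an unpicked one.

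Of the 14 weaker reproducible summits, 9 lay within 1 kb of a TSS and 6 were assigned to the gene itself. Their scores ran from 126 to 341 and their arm ranks from 177 to 3267. Their GC content had a median of 40.6%, with a range of 25.7% to 58.4%, equal in median to the other reproducible peaks. As a group, the weaker summits of the loci did not share the low GC content of the strongest.

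Of these 14 summits 1, at the cbt promoter, had a full STAT site within 50 bp, while 85.2% of all reproducible arm peaks had none. The count depended on the exact summit. In replicate 3, nearby summits at chr2L:472414, chr2L:482918 and chr3R:12454652 also had a site within 50 bp. The cbt promoter summit at chr2L:480020, 332 bp upstream of the cbt TSS, scored 255 with arm rank 432. Its 4-base-spacer site TTCAGGTGAA stood at chr2L:480057-480066. In replicate 1 the corresponding summit scored 120 at 347 bp upstream, and in replicate 3 it scored 133 at 423 bp upstream. A further summit in the ush intron, 3170 bp upstream of the cbt TSS, scored 179. The cbt locus therefore held a weaker summit with a site within 50 bp, nearer to the gene than the strong summit. The strong peak also held a site, but 207 bp from its summit.

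CG11050 and px also had weaker summits at other starts. At CG11050 a summit 49 bp upstream of a start scored 225 (arm rank 644), and the replicates placed it 48 and 53 bp upstream. At px a summit in the 5′ UTR, 52 bp downstream of the outermost start, scored 127 (arm rank 3210), and a pair in the intron scored 159 and 147. The second peak at CG31668, with a score of 341 and arm rank 177, was nearest to COX7AL2, a relative of a cytochrome c oxidase subunit. It scored 189 in replicate 1 and 165 in replicate 3.

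Most other weaker summits were nearest to the TSS of a neighbour. At Art3 a summit 35 bp from the start of Caf1-55, a histone chaperone subunit, scored 190. At Chro one 27 bp from the start of Arf1, a small GTPase of the Golgi, scored 129. At CG14100 one 97 bp from the start of CG9330 scored 151. At CG18549 the 3 weaker summits scored 143, 132 and 126 and were assigned to trus and CG5961. The first of them lay in the coding sequence of CG18549 itself, 1785 bp from the trus TSS.

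**Figure D4:**
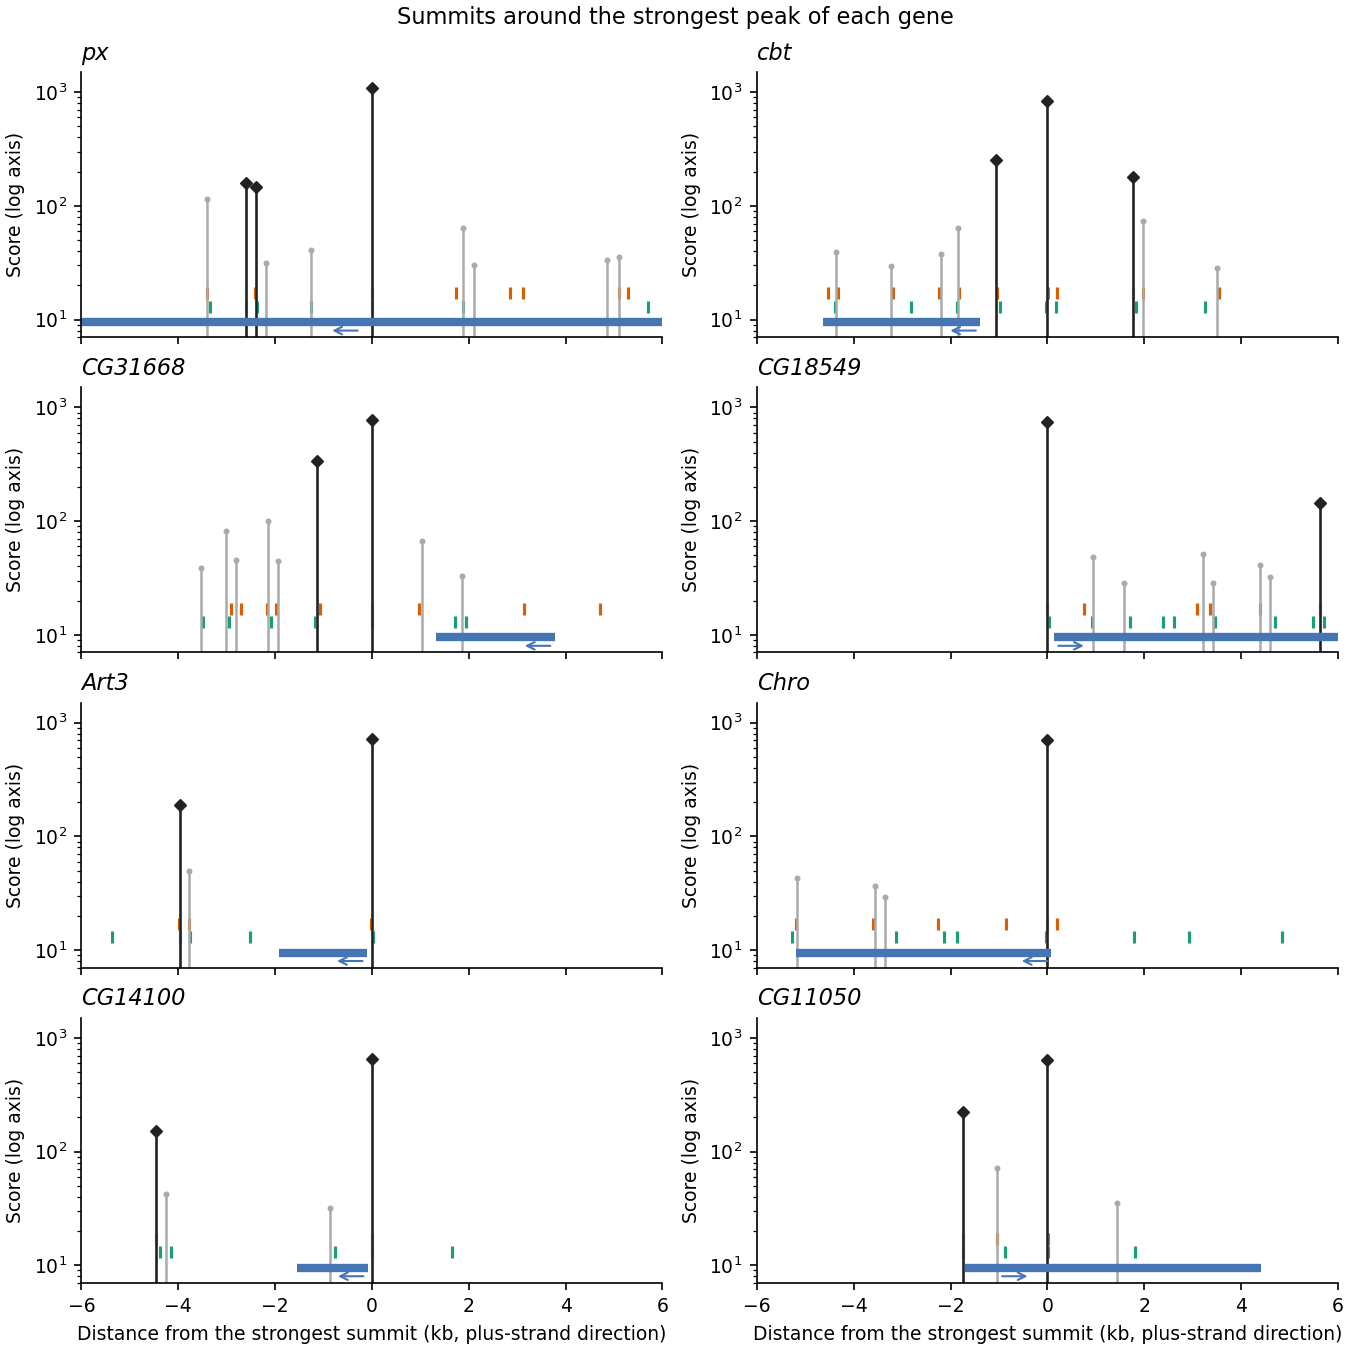
Score (log axis) of summits against the distance from the strongest summit (kb, plus-strand direction), within 6 kb of it. Black diamonds are reproducible summits, grey dots are pooled ones, and the orange and green ticks mark summit positions in replicates 1 and 3, at a height without meaning. The blue bar is the gene and the arrow its nearest start and direction; the strongest summit exceeds the next by 2.27 to 6.8 times.

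Relatives of the genes with known families were looked up in 3 lists. Among 8 KLF and Sp factors, 3 had an assigned reproducible peak: cbt, luna with a best score of 227 (arm rank 626) and dar1 with 302 (arm rank 266). Among 9 arginine methyltransferases, 2 had one, Art3 and Art7, the latter with 179 (arm rank 1318). The best peaks of these relatives were all weaker than those of cbt and Art3, which were chosen for their height.

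Among 14 partners of Chromator and other promoter or insulator proteins, 6 had an assigned peak. Besides Chro these were JIL-1, a histone H3 kinase known to bind Chromator, with 4 peaks and a best score of 420 (arm rank 98), and Cp190, an insulator protein, with 343 (arm rank 171). Dref followed with 216 (arm rank 723), the insulator proteins pita with 188 (arm rank 1150) and CTCF with 125 (arm rank 3298). Over the 3 lists 11 of 31 genes had an assigned peak, and 8 of 28 with cbt, Art3 and Chro left out, against 18.0% of protein-coding genes. A count of any summit within 5 kb of the gene gave 23 of 31, against 42.5% of genes. The 23 include cbt, Art3 and Chro, which have such a summit by the rule.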

How the data were processed

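Peak lists of 2 biological replicates, deposited on dm6, were analysed. The authors called peaks per replicate and on both replicates pooled, against a shared control, and derived an IDR-thresholded list (irreproducible discovery rate), here called the reproducible set, per the file lists of the samples. Which aligner, peak caller, settings and IDR threshold were used is not given in the sources used here. Deposited values are a score without stated unit, used for ranks within a list, a −log10 q-value and a summit offset. Replicate and pooled lists hold 30000 peaks each. Depth is unknown.

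Mitochondrial peaks (2 in the reproducible set) were left out of ranks. Summits were assigned to the nearest TSS of Ensembl BDGP6.54.115 protein-coding genes with Python 3.11.15 and pandas 2.3.3. Motifs were searched on both strands in 101 bp of the RefSeq Release 6 sequence, with code tested on simulated data. Genes named are the 8 genes, genes with a TSS within 1 kb of a strongest summit, the 5 next promoter peaks with no STAT site, other peaks with none among the 20 strongest (chif), and list members with a reproducible peak; neighbours of weaker summits and genes around a summit were named after their values were seen. Genes and lists were chosen with earlier results of these data known, and no test was run. Alternatives changed the flank, window, TSS distance, peak set and replicates.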

Additional observations from a re-analysis of the deposited data

How the results depend on the processing

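Of 64 alternative values of 17 results, 51 stayed close to the reported ones and 13 moved. Reproducible summits in the 8 loci numbered 22 with flanks of 5 kb, 13 with 1 kb, 7 in the gene spans alone and 13 in the stricter 50% of the set. Genes with such a summit went from 8 to 4 in the spans alone. With 100 bp on each side, 2 windows held GAGAGAG and the median GC content was 35.8%. In the whole peak interval 3 held GAGAGAG, 1 a DRE and 2 an E-box, and the GC content was 41.7%. These wider stretches have no share of all peaks beside them, so nothing is read from their counts. Counting any summit within 5 kb, 23 family genes had a peak in place of 11. Leaving out 1 replicate at a time gave 3 to 7 genes with a STAT site with 1 mismatch and 1 to 2 with a second gene's TSS within 1 kb; the low values came without replicate 1. Counted by overlap with the 8 peaks, a choice made after seeing the data, ATTTTA stood in 7 of 8 windows at the summits of replicate 1, not in that of CG14100, and at those of replicate 3 in 8; the count without replicate 1 was 7 as Art3 had no assigned peak. The other moves follow from a wider window, a narrower flank, fewer peaks or, for the family genes, another counting rule.

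No paired analysis was possible because there was 1 group. Ranking by the deposited p-value column was not run, since that column holds −1 throughout. The lists carry no read counts, so no depth, interval or detection limit can be given. Peaks in 1 locus share their libraries and are not replicates, and the 2 replicates give no estimate of spread among embryos.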
